A study of Mus musculus with 4 samples.

Results

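Chemokines are the small secreted proteins that direct the movement of leukocytes, and 55 genes of the 38924 listed were taken as this family by their symbols. The name rule took the CC ligands (Ccl), the CXC ligands (Cxcl), their receptors (Ccr and Cxcr), and the single-member CX3C and XC pairs Cx3cl1, Cx3cr1, Xcl1 and Xcr1. This gave 37 ligands (22 CC, 13 CXC, 1 CX3C and 1 XC) and 18 receptors (10 CC, 6 CXC, 1 CX3C and 1 XC). All 4 kidney samples were from females of the CB-17 SCID strain (Balb/c background), whose mutation blocks the maturation of B and T cells, so saline and immune complex groups alike have few lymphocytes. The 2 control samples received saline and the other 2 received immune complexes of IgG with Gd-IgA1, the galactose-deficient IgA1 that is the autoantigen of IgA nephropathy. Either was given 3 times through the tail vein over 7 days, and kidneys were taken 1 day after the last injection. No age is stated in the labels. Each library was made from part of a kidney, and the labels do not say whether each sample was a separate animal, so p-values measure only the spread between these samples.

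Chemokines are named for the spacing of the first cysteines of the mature protein, which are adjacent in CC ligands and separated by other residues in CXC and CX3C ligands. Each binds one or several G protein-coupled receptors on leukocytes, and a separate set of atypical receptors binds ligands without activating G proteins and removes them. Homeostatic members such as Cxcl12 are made constantly by tissue cells, whereas inflammatory members such as Ccl2, Cxcl1 and Cxcl10 are induced by cytokines. In glomerulonephritis, Ccl2 with its receptor Ccr2 and Cx3cl1 with its receptor Cx3cr1 are the pairs best known for bringing monocytes and keeping macrophages in the kidney.

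The libraries held 19675879 and 20950134 reads assigned to genes for saline 1 and 2, and 22791960 and 21681408 for immune complex 1 and 2. The family took 382, 391, 325 and 358 RPM (reads per 1000000 gene reads, unscaled). Proximal tubule markers summed to between 7128 and 7614 CPM (the same, scaled between libraries) in every library. The CD3 chain genes Cd3e, Cd3d and Cd3g of T cells had 0 to 3 reads per library, while 4 other genes of the T cell list had 8 to 34 and were tested. Adipocyte markers differed most of the cell lists. Their summed levels were 77.3 and 527 CPM with saline against 1594 and 1155 CPM after immune complexes. Their median log2 fold change was 2.44. Urothelial markers came next with 75.5 and 92.3 against 16.4 and 18.3 CPM (-1.52). All 7 urothelial genes had lower fitted values, and the groups did not overlap for 2, beside 30% of all genes. Upk1a, Upk1b and Upk2 were highest in saline 2, and without it their log2 differences were 0.29, 1.08 and 1.62. Not every gene of the list turned in that way, so its sums and median do not describe each gene. The other lists of kidney and vessel cells had medians of -0.13 (thick ascending limb and distal tubule), -0.46 (collecting duct), 0.28 (podocyte), -0.24 (endothelium) and 0.12 (fibroblast and pericyte). The lists of blood cells had medians of 0.14 (NK cell, 3 tested genes), 0.33 (T cell, 4), -0.42 (B and plasma cell, 3), -0.61 (platelet, 2) and 0.78 (neutrophil, 3). Each of these medians thus rests on few genes, and the B and plasma cell genes were split, 1 higher and 2 lower. The adrenal cortex list had 1 tested gene (0.45). No gene of any cell list was called, and the part of these cells in the results was not tested.

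Of the 55 members, 23 had enough reads to be tested, 14 ligands and 9 receptors. The threshold was the edgeR filter for low counts, which asks for about 10 reads in at least 2 libraries. The other 32 members, 23 ligands and 9 receptors, carried 1.12% of the family's reads. Their reads summed over the 4 libraries ran from 0 to 67, with a median of 7. The receptor genes Cxcr1, Ccr8 and Cxcr6 had 0 reads in all 4 libraries, which allows a level of up to 0.0353 RPM over the libraries summed (3 counts). Intervals and such limits cover counting error only.

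A few genes, most of them ligands that tissue cells make, held most of the family's reads. Cxcl12, Cx3cl1, Cxcl16, Ccl28 and the receptor gene Cx3cr1 together took 88.2% of the family's reads, and Cxcl12 alone took 40.2%. Most of the Cx3cr1 reads in that share lay in introns. Per length of transcript, in the authors' RPKM (reads per kilobase of exon, per 1000000 reads), Cxcl12 was the highest member by its mean, with 21.4 and 19.5 with saline and 16.1 and 14.7 after immune complexes. Cxcl16 followed with 19.1 and 13.9 against 14.6 and 12.0 RPKM, and Cx3cl1 with 17.2 and 17.0 against 13.5 and 10.4 RPKM. Cxcl12 was the highest of the 3 in each library, while Cx3cl1 stood above Cxcl16 in saline 2 and under it in the others. Ccl28 stood at 1.66 and 10.7 RPKM with saline and 1.45 and 20.7 RPKM after immune complexes. The highest receptors were Cxcr4 (2.25 and 2.24 against 1.36 and 1.76 RPKM) and Cx3cr1 (1.10 and 1.02 against 1.62 and 1.48 RPKM). Ccr2, next among receptors, had a mean of 0.521 RPKM over the 4 libraries.

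**Figure D1:**
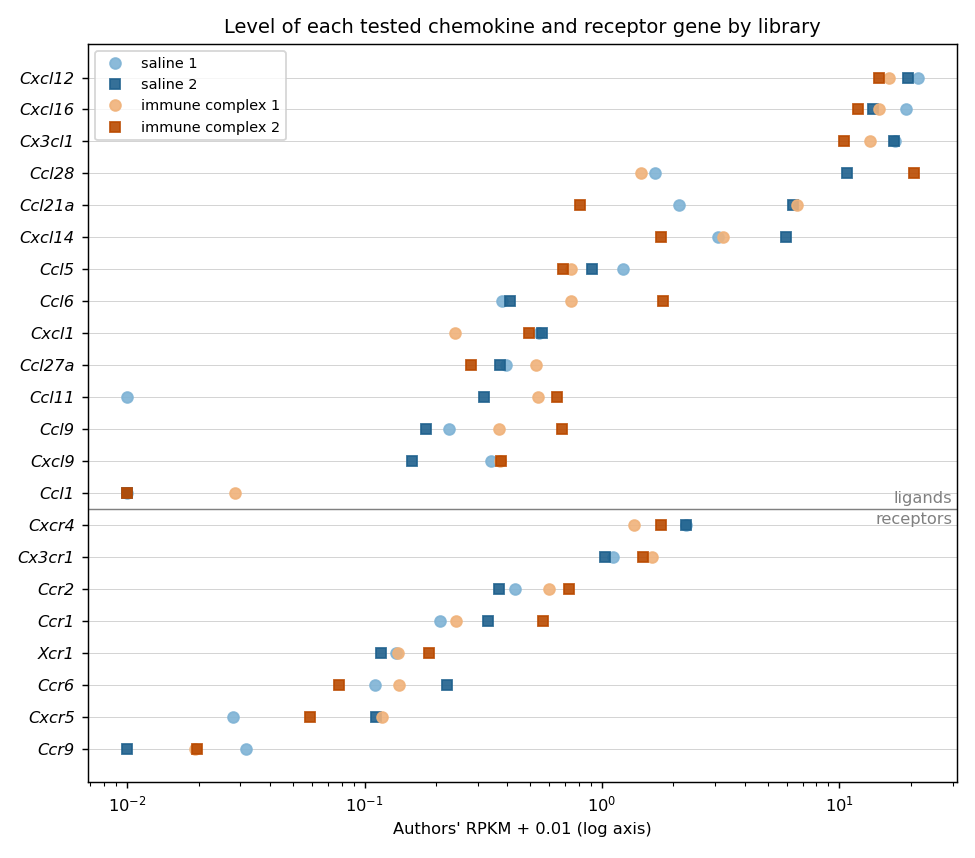
The authors' RPKM plus 0.01 on a log axis for 22 of the 23 tested members, ligands above the line and receptors under it, with one point per library. Cxcl12, Cxcl16 and Cx3cl1 sit to the right in all 4 libraries, while Ccl28 is split between 1.45 and 20.7 RPKM.

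For several members the deposited total included many reads that lay in introns or matched several places. Cx3cr1 had 789 and 797 reads with saline and 1054 and 896 after immune complexes, but 88.2% of its reads were intronic and only 13.2% were placed at 1 location. Its exon reads were 81 and 80 with saline and 138 and 120 after immune complexes. The Cx3cr1 region in the files, chr9:119901616-120068283 on GRCm38, spans 166668 bases and overlaps 5 other protein-coding genes of the GENCODE M21 annotation, Wdr48, Gorasp1, Ttc21a, Csrnp1 and Xirp1. Ccr9, the receptor for Ccl25, had 146 to 228 reads per library of which only 2, 0, 1 and 1 were exonic. The 105019-base Ccr9 region overlaps Lztfl1 (23282 bases) and Slc6a20a (447 bases) on the opposite strand. It also overlaps noncoding genes, the longest overlap being Gm17200 on the same strand (22608 bases). Total reads of Ccr9 stood at 7.18 and 9.46 CPM with saline and 9.54 and 10.8 CPM after immune complexes, without overlap (log2 difference 0.29 ± 0.25, and 0.10 without saline 1). Ccl1, a ligand of Ccr8, had 14 and 15 reads with saline and 28 and 12 after immune complexes, of which 0, 0, 1 and 0 lay in exons (0.38 ± 0.52). For Ccr9 and Ccl1 the totals therefore cannot be read as levels of the mature transcript, and neither can most of the Cx3cr1 total. Ccl21a, a ligand of Ccr7 with near-identical copies, had 12.7% of its reads at 1 location, and Ccl6 had 38.5%. The labels do not state whether counting used strand, so reads of overlapping genes on the other strand cannot be told apart from those of a member.

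**Figure D2:**
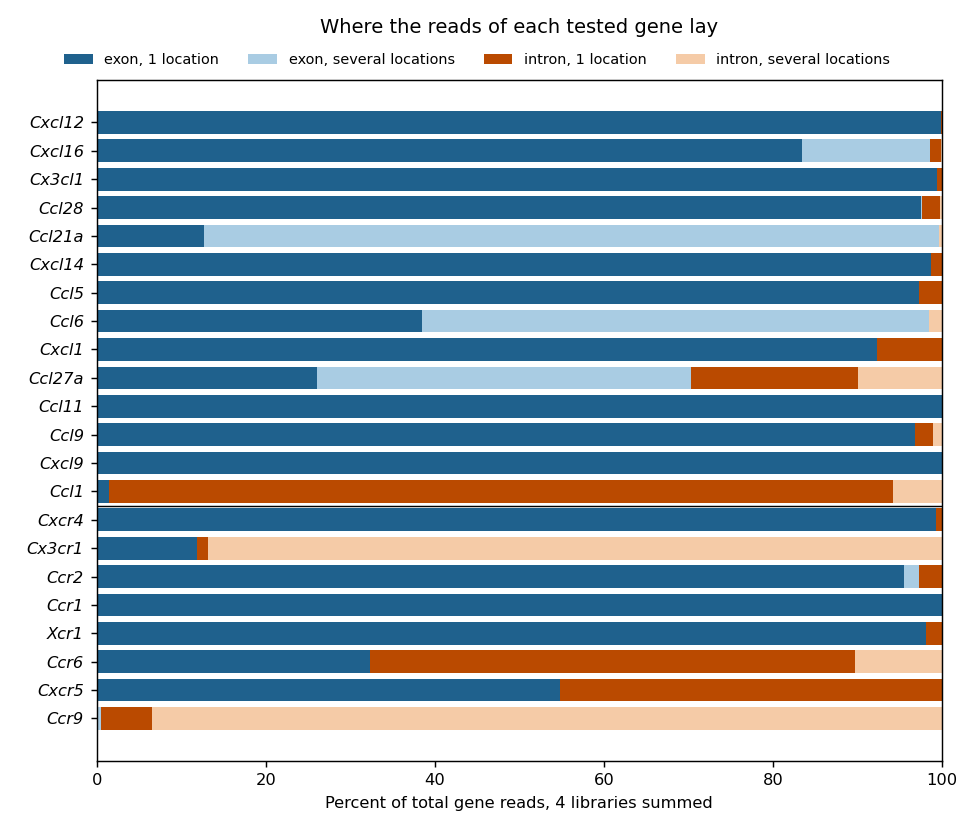
The percent of total gene reads, summed over the 4 libraries, that lay in exons or introns and at 1 or several locations, for 22 of the 23 tested members. Cx3cr1, Ccr9 and Ccl1 are mostly intronic, and Ccl21a and Ccl6 rest mostly on exon reads placed at several locations.

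The design compares kidneys after injected immune complexes with kidneys after saline. No member passed edgeR's quasi-likelihood test after Benjamini-Hochberg adjustment over all 16334 tested genes, of which 0% passed. The lowest adjusted p among the members was 0.894, for Ccl6. DESeq2 also called 0 members (0.612% of all genes) and limma-voom 0 (0%). DESeq2 gave no adjusted p for Cxcl1, Cxcr5, Xcr1 and Ccl11, so it could not call them. The count of members called was also 0 without a filter on low counts (0.00795% of genes), on reads at 1 location (0.00657%), on exon reads at 1 location (0.0072%), with the replicate number as a block (0.337%), with a crossed block (0.98%) and without saline replicate 1 (0.276%). Without saline replicate 2 it was 2 members, Ccl28 and Cxcl10, where 1.65% of genes were called. At an unadjusted p under 0.05 there were 4 members, Ccl6, Ccl9 and Ccr2 among them, all higher after immune complexes, where 4.59% of all genes met that limit, 1.98% higher and 2.6% lower. Fitted fold changes were higher for 14 tested members and lower for 9, with a median log2 fold change of 0.37, and 51.9% of all genes were higher with a median of 0.01. Without immune complex replicate 1 the median was -0.03. The groups did not overlap for 13 members, 9 higher and 4 lower, where 30% of all genes did not overlap, 15.4% higher and 14.6% lower. Some of these, such as Ccl11, passed the filter through the immune complex libraries alone, so the count says nothing of the family as a whole. In whole tissue, fewer cells of a type and less RNA per cell cannot be told apart.

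**Figure D3:**
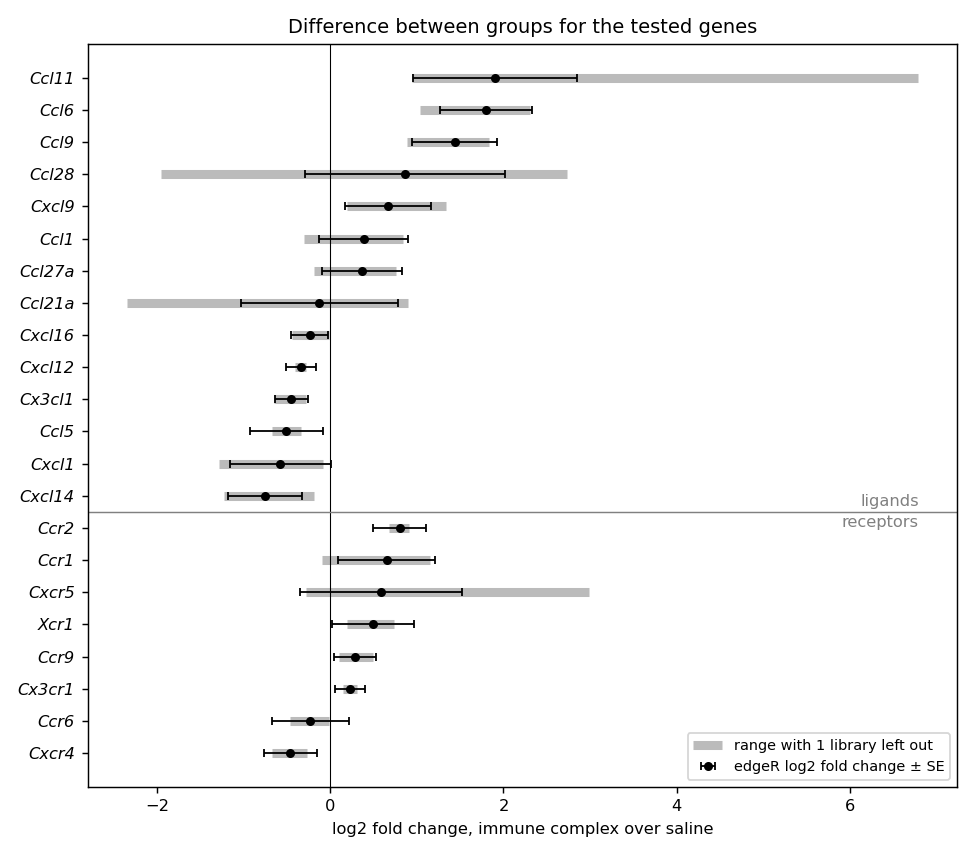
The edgeR log2 fold change of immune complex over saline (points) with its standard error (bars) for 22 of the 23 tested members, ligands above the line, with grey bands for the range when 1 library is left out. The bands of Ccl6, Ccl9 and Ccr2 lie above 0, whereas Ccl28 runs from -1.96 to 2.73.

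Cxcl12 and Cx3cl1, ligands of resident tissue cells, had lower levels in both immune complex libraries than in either saline library, without passing the test. Cxcl12, the ligand of Cxcr4 that retains leukocytes and supports vessels, stood at 169.7 and 158 CPM with saline and 135 and 124 CPM after immune complexes. The groups did not overlap, and the log2 difference was -0.34 ± 0.17 (SE; edgeR adjusted p = 0.99997), between -0.41 and -0.28 with single libraries left out. Its receptor gene Cxcr4 stood at 3.94 and 4.07 against 2.51 and 3.31 CPM, also without overlap (-0.46 ± 0.31; -0.27 without immune complex 1). The atypical receptor gene Ackr3, which binds and removes Cxcl12, stood at 57.5 and 60.9 against 44.5 and 46.8 CPM (-0.38 ± 0.16). Each of these 3 genes was lower in both immune complex libraries, and none passed the test.

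Cx3cl1, or fractalkine, is a membrane-bound chemokine that can be shed and attracts Cx3cr1-bearing macrophages. It stood at 62.0 and 62.7 CPM with saline and 51.4 and 39.8 CPM after immune complexes. The saline libraries were close together and both lay above the immune complex libraries, which differed from each other. Its log2 difference was -0.45 ± 0.19 (unadjusted p = 0.0514), ranging from -0.65 to -0.28 over the fits that left out 1 library. The receptor gene Cx3cr1 had higher values. On total reads it stood at 38.8 and 37.7 against 47.2 and 42.3 CPM (0.23 ± 0.17). On exon reads alone its log2 difference was 0.63 (unadjusted p = 0.0453, adjusted p = 0.9998).

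Cxcl16 and Cxcl14 complete the abundant CXC ligands. Cxcl16, a membrane-bound ligand of Cxcr6 that also takes up oxidised lipoprotein, stood at 56.4 and 42.4 CPM with saline and 46.0 and 37.8 CPM after immune complexes, with overlapping groups (-0.24 ± 0.21). Its difference was -0.02 without saline 1 and -0.44 without saline 2. Its receptor Cxcr6, a receptor of T and NKT cells, was among the genes with 0 reads. Cxcl14, made by epithelia, stood at 5.41 and 10.8 against 6.14 and 3.45 CPM (-0.75 ± 0.43; -0.18 without saline 2 and -1.23 without immune complex 1). Here saline 2 was the highest library and immune complex 2 the lowest, and the groups overlapped.

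Ccl28, the mucosal epithelial chemokine that draws IgA plasma cells through Ccr10, was the most variable of the abundant members. It had 131 and 864 reads with saline and 136 and 1695 reads after immune complexes, or 6.44, 40.9, 6.09 and 80.1 CPM. Saline 1 and immune complex 1 were close together, and saline 2 and immune complex 2 were both far above them. Nearly all of these reads (97.5%) were exonic and at 1 location. The log2 difference was 0.86 ± 1.15, smaller than its error. With immune complex replicate 2 left out it was -1.96. With saline replicate 2 left out it was 2.73, and in that fit edgeR gave an adjusted p of 1.09e-06 although the 2 immune complex libraries stood at the 6.09 and 80.1 CPM above. In the authors' deposited table, with its sign turned to immune complex over saline, the log2 fold change of Ccl28 was 0.05 ± 0.098. DESeq2 run here gave 0.87 ± 1.75, so the deposited value cannot be compared in size with the log2 differences given here. Of 19 lists of cell type markers, 2 were ordered as Ccl28 was, with both libraries numbered 2 above both numbered 1. The monocyte list stood at 57.1, 93.7, 50.01 and 94.7 CPM, mostly from Fn1, the gene of the matrix protein fibronectin, named after its values were seen (39.1, 76.2, 33.1 and 74.3 CPM). The mast cell and basophil list stood at 0.394, 2.18, 1.79 and 3.17 CPM, and the part of either in the Ccl28 values was not tested. The genes of the Ccl28 receptors had few reads, with 3 reads of Ccr10 and 1 read of Ccr3 over the 4 libraries.

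The other mucosal and skin ligand tested, Ccl27a, a ligand of Ccr10, stood at 0.984 and 1.28 CPM with saline and 1.93 and 0.992 CPM after immune complexes, with overlapping groups (0.37 ± 0.46). Only 45.9% of its reads were at 1 location. Ccl25, the ligand of Ccr9, is listed as Ccl25_1 and so fell outside the name rule, with 91 and 125 reads with saline and 124 and 130 after immune complexes.

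The highest fold changes relative to their errors belonged to the myeloid CC ligands Ccl6 and Ccl9, which macrophages make and which act on Ccr1. Ccl6 had 13 and 15 reads with saline and 31 and 71 reads after immune complexes, or 0.639, 0.71, 1.39 and 3.36 CPM. Both immune complex libraries lay above saline, with immune complex 2 the higher. The log2 difference was 1.80 ± 0.53 (unadjusted p = 0.0126; adjusted p = 0.894), between 1.03 and 2.30 with single libraries left out. On reads at 1 location, 5 and 8 against 14 and 23, it was 1.43. Ccl6 overlaps the noncoding gene E230016K23Rik on the opposite strand along its whole length. In the authors' deposited table Ccl6 had an adjusted p of 0.698, and none of the 21 members listed there was under 0.05.

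Ccl9 lies next to Ccl6 on chromosome 11, at chr11:83572919-83578636 against chr11:83587882-83593087 on GRCm38. It had 14 and 11 reads with saline and 25 and 46 reads after immune complexes, or 0.689, 0.52, 1.12 and 2.17 CPM. The order of the libraries was again saline under immune complex, with immune complex 2 the highest. The log2 difference was 1.44 ± 0.49 (unadjusted p = 0.0240; adjusted p = 0.973), between 0.88 and 1.84 with single libraries left out. The start regions of both genes are shown because this neighbouring pair had the lowest p-values of the family and was higher in the same libraries. They run from 250 bases before to 50 after the gene start and are credited to RefSeq on GRCm38.p6, with capitals marking motif matches on either strand.
Ccl6 promoter, chr11:83593038-83593337, minus strand: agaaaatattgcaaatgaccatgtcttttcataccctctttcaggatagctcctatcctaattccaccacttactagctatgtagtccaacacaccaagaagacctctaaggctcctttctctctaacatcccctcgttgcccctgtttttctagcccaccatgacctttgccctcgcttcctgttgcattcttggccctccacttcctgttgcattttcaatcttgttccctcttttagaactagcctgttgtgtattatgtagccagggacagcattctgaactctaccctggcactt
Ccl9 promoter, chr11:83578587-83578886, minus strand: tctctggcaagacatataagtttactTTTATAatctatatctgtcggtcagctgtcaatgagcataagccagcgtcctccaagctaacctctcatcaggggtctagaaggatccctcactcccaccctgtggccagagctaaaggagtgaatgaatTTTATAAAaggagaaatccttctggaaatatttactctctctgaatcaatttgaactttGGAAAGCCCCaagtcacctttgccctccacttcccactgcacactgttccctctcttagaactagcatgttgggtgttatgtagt

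The windows of Cxcl12 and Cx3cl1 are shown beside them as those of the most abundant member and of its abundant CX3C counterpart, both lower in the immune complex libraries.
Cxcl12 promoter, chr6:117168285-117168584, plus strand: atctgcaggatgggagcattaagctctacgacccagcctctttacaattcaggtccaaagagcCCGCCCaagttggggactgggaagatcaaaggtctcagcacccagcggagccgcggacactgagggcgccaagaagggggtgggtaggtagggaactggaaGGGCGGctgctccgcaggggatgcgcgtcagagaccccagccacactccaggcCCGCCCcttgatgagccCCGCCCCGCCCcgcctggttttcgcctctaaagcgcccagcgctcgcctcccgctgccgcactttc
Cx3cl1 promoter, chr8:94771930-94772229, plus strand: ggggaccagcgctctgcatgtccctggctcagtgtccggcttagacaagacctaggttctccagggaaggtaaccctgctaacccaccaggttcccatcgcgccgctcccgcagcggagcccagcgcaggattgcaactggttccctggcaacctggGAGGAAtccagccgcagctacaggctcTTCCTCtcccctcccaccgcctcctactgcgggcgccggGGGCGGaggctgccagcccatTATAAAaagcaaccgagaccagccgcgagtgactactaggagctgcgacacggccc

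The longest run of letters shared by the Ccl6 and Ccl9 windows, gccctccacttcc, had 13 bases, from position 196 of the Ccl6 window and 237 of the Ccl9 window. The motifs searched were the kappaB site, the interferon-stimulated response element (ISRE, by its name), the PU.1 core (GAGGAA), the GC box (GGGCGG) and the TATA box (TATAAA). The Ccl9 window held 1 kappaB match, 35 bases before the RefSeq start, and 3 TATA matches, a pair of which overlap. The Ccl6 window held no match to these letters. The Cxcl12 window held 5 GC box matches, and the Cx3cl1 window held a PU.1 core on each strand, a GC box and a TATA match 6 bases before the RefSeq start. That start lies 171 bases inside the Cx3cl1 region used for counting, while for Cxcl12, Ccl6 and Ccl9 both starts are the same. Of all 32851 promoter windows in the table, 4.51% held a kappaB match, 3.44% an ISRE match, 28.3% a PU.1 core, 35.7% a GC box and 13.6% a TATA match. Of the 46 windows that belong to 40 of the members, 9 held a kappaB match, 3 an ISRE match, 18 a PU.1 core, 10 a GC box and 11 a TATA match. A match describes the letters only and is neither a site nor a cause.

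Ccr2, the receptor for Ccl2 that monocytes need to leave bone marrow, had higher levels in both immune complex libraries without passing the adjusted test. It had 54 and 50 reads with saline and 90 and 100 reads after immune complexes, or 2.66, 2.37, 4.03 and 4.73 CPM. The groups did not overlap and the libraries of each group were close together. Its log2 difference was 0.80 ± 0.30 (unadjusted p = 0.0351; adjusted p = 0.99997), between 0.68 and 0.91 with single libraries left out.

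Ccr1, the receptor for Ccl6 and Ccl9, stood at 0.541 and 0.899 CPM with saline and 0.672 and 1.61 CPM after immune complexes. The groups overlapped, and its log2 difference of 0.65 ± 0.56 was -0.10 without immune complex replicate 2. Xcr1, which marks cross-presenting dendritic cells, stood at 0.541 and 0.473 against 0.583 and 0.851 CPM, without overlap (0.49 ± 0.47; 0.20 without immune complex 2). Its ligand Xcl1, made by NK and T cells, had 6, 2, 3 and 0 reads. The 11 members on chromosome 9 are all receptors, and Xcr1, Ccr1, Ccr3 and Ccr2 lie within chr9:123852315-124113557 on GRCm38.

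Markers of myeloid cells differed by list. All 12 macrophage markers had higher fitted values after immune complexes, with a median log2 fold change of 0.64 and summed levels of 206 and 219 CPM with saline and 261 and 306 CPM after immune complexes. None was called, and the groups did not overlap for 9 of them, all higher, beside 15.4% of all genes. Adgre1, the F4/80 antigen of macrophages, stood at 3.54 and 3.41 against 7.17 and 9.78 CPM, whereas Csf1r, the receptor for macrophage colony-stimulating factor, stood at 80.0 and 99.4 against 77.6 and 106 CPM. All 7 tested dendritic cell markers were higher too (median 0.65), at 14.7 and 15.9 against 20.4 and 21.1 CPM summed. Among them Batf3 turned to -0.07 without immune complex 1. Siglech had 4 and 3 reads with saline and 11 and 20 after immune complexes. It passed the filter through the immune complex libraries alone, so the count of higher genes says nothing of the list as a whole. Of the monocyte list 4 of 7 genes were tested, 2 higher and 2 lower, with a median of -0.04. The part of these cells in the Ccr2, Ccl6 and Ccl9 values was not tested.

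**Figure D4:**
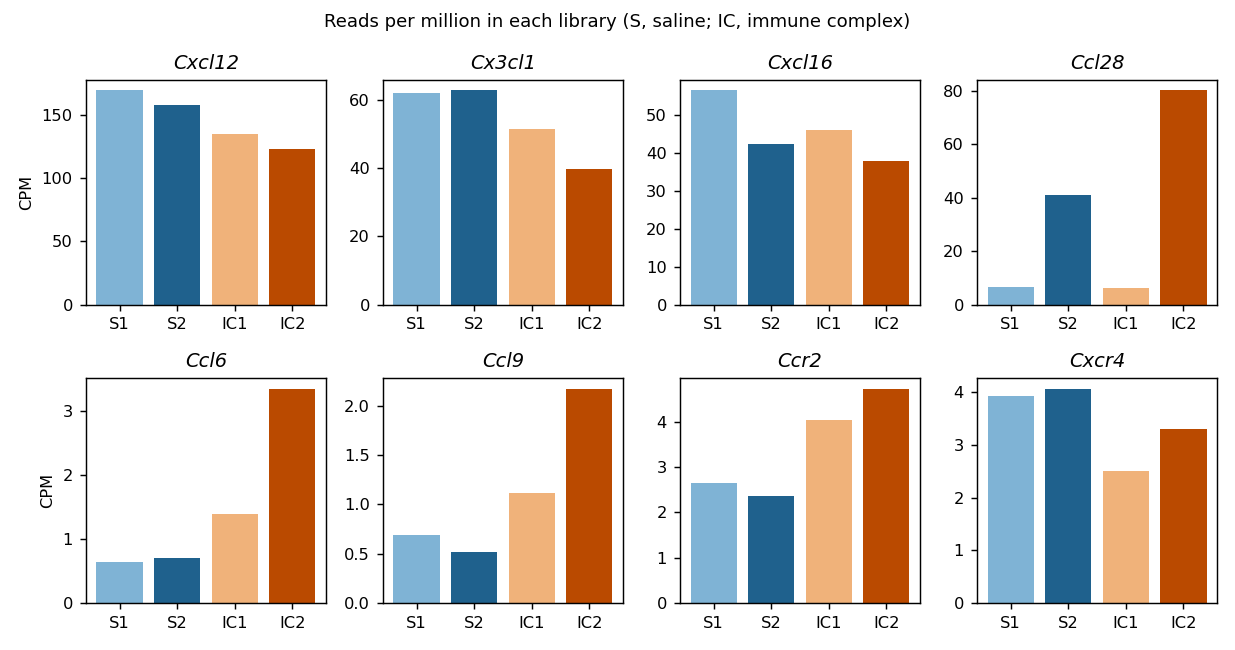
CPM in each library for the 4 most abundant ligands and for Ccl6, Ccl9, Ccr2 and Cxcr4 (S1 and S2, saline; IC1 and IC2, immune complex; each axis starts at 0). Cxcl12, Cx3cl1 and Cxcr4 are lower and Ccl6, Ccl9 and Ccr2 higher in both immune complex libraries, while Ccl28 is high in S2 and IC2.

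The ligands of Ccr2 were close to undetected. Ccl2, the main monocyte attractant, had 5, 0, 1 and 0 reads. This gives 0.254 RPM in saline 1 (95% exact binomial interval 0.0825 to 0.593) and an upper bound of 0.170 in immune complex 2. Of the Ccl2 reads 3, 0, 0 and 0 were placed at 1 location, and Ccl2 lies wholly within Gm17268 on the opposite strand. Ccl7 had 2, 0, 0 and 2 reads, Ccl8 had 3, 0, 4 and 3 and Ccl12 had 6, 7, 6 and 1. No induction of these ligands was therefore detectable at this depth 1 day after the last injection. Of the macrophage inflammatory proteins, Ccl3 had 1, 7, 7 and 3 reads and Ccl4 had 5, 5, 4 and 1. Ccl5, made by T cells and other cells, was tested and stood at 1.13 and 0.899 CPM in saline against 0.762 and 0.662 CPM after immune complexes, lower without overlap (-0.51 ± 0.42; -0.34 without saline 1).

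Neutrophil chemokines were also scarce. Cxcl1, the keratinocyte chemoattractant that acts on Cxcr2, had 10 and 13 reads with saline and 5 and 11 reads after immune complexes (-0.58 ± 0.58), with overlapping groups, and -0.09 without immune complex 1 or -1.28 without immune complex 2. Cxcl2 had 1 to 3 reads per library, Cxcl3 and Cxcl5 at most 2, and the receptor gene Cxcr2 had 4, 2, 5 and 3. The neutrophil marker list summed to 2.90 and 2.27 CPM with saline and 4.12 and 3.59 CPM after immune complexes. Of its 10 genes 3 were tested, all with higher fitted values (median 0.78), and 1, Mpo, had 0 reads. S100a9 had 22 and 12 reads with saline against 22 and 16 after immune complexes. Its log2 difference of 0.08 was -0.32 without saline 2 and -0.12 without immune complex 1. S100a8 had 5 and 4 reads with saline and 11 and 13 after immune complexes. It passed the filter through the immune complex libraries alone, so the count of higher genes says nothing of the list as a whole.

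The interferon-induced ligands of Cxcr3 differed in their pattern. Cxcl9, the ligand most dependent on interferon gamma, had 19 and 9 reads with saline and 24 and 23 reads after immune complexes, without overlap (0.67 ± 0.50). This value was 0.20 without saline 2 and 1.33 without saline 1. Cxcl10 had 46 reads in saline 1 against 7 in saline 2 and 6 and 8 in the immune complex libraries, and was not tested in the fit of all 4 libraries. In saline 1 that is 2.34 RPM (95% exact interval 1.71 to 3.12), above the upper bounds of 0.688, 0.573 and 0.727 in the other libraries. Only 13 of those 46 reads were placed at 1 location, against 5, 4 and 8 in the others, and Cxcl10 lies wholly within Art3 on the opposite strand. Without saline replicate 2 the saline group was saline 1 alone. Cxcl10 then passed the filter through its 46 reads in that library, with a log2 difference of -2.80. That value rests on 1 saline library, in which most Cxcl10 reads were placed at several locations. Cxcl11 had 4, 2, 2 and 0 reads and the receptor gene Cxcr3 had 3, 8, 15 and 7.

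Members that organise lymphoid tissue had overlapping groups where tested. Ccl21a, which lymphatic endothelium makes to guide dendritic cells, had 36 and 116 reads with saline and 132 and 15 reads after immune complexes, and its log2 difference of -0.13 ± 0.91 ran from -2.35 to 0.89 with single libraries left out. Its receptor gene Ccr7 had 6, 3, 3 and 0 reads, and Ccl19, the other ligand, had 0, 1, 6 and 0. Lymphatic endothelial markers summed to 62.8 and 61.9 CPM with saline and 36.4 and 48.0 CPM after immune complexes. All 5 tested genes of that list had lower fitted values (median -0.46), Prox1 among them at 26.2 and 20.8 against 9.86 and 19.2 CPM. With 1 library left out the sign turned for Pdpn (0.10 without saline 2). It also turned for Mmrn1 (0.18 without saline 2 and 0.09 without immune complex 2), and the other tested genes kept theirs. Lyve1 went the other way with 1, 6, 6 and 26 reads and was not tested. The part of these cells in the Ccl21a values was not tested. Cxcl13, the B cell attractant, had 5, 6, 11 and 3 reads, and its receptor gene Cxcr5 had 1, 11, 14 and 5, of which 45.2% were intronic (0.59 ± 0.94). Ccr6, with 15 and 21 reads with saline and 14 and 18 after immune complexes, had 67.6% of its reads in introns (-0.23 ± 0.44; -0.01 without saline 2 and -0.03 without immune complex 1), and its ligand Ccl20 had at most 1 read.

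Among chemokines of allergic inflammation, Ccl11, the eosinophil attractant eotaxin, had 0 and 7 reads with saline and 13 and 15 reads after immune complexes. Its log2 difference of 1.90 ± 0.95 (unadjusted p = 0.0864) was 0.95 when saline replicate 1 was left out and 6.79 when saline replicate 2 was, where the only saline library left had 0 reads. Its receptor gene Ccr3 had 1 read in all, Ccl24 had 1, 0, 3 and 3, and Ccl26 had 1. Ccl17 and Ccl22, which act on Ccr4, had 2 to 7 and 0 to 4 reads per library, and Ccr4 had 3 reads, all in saline 2. The remaining ligands Cxcl15, Cxcl17, Ccl21b and Ccl27b had 0 to 6 reads per library.

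Genes that handle or transmit chemokine signals outside the name rule showed no call. Of 8 atypical receptors and related scavengers, 6 were tested, with 4 higher and 2 lower and a median log2 fold change of 0.28. Ccrl2, a receptor that presents chemerin without signalling, stood at 2.41 and 2.46 CPM with saline and 4.75 and 4.11 CPM after immune complexes (0.86 ± 0.30, unadjusted p = 0.0252, adjusted p = 0.974). Cmklr1, the signalling chemerin receptor, differed by 0.52 ± 0.31 and Pitpnm3, described as a receptor for the human chemokine CCL18, by -0.48 ± 0.24. Ackr2, which scavenges inflammatory CC chemokines, differed by 0.63 ± 0.50, while Ackr1, listed under its older symbol Darc, had 0, 0, 1 and 5 reads and Ackr4 had 1, 0, 0 and 0.

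Of 9 chemokine-like factors 8 were tested, all with lower fitted values and a median of -0.05. The platelet chemokine Pf4 stood at 0.394 and 0.804 against 0.493 and 0.473 CPM, and Cklf, Cmtm6 and Cmtm3 differed by -0.19 ± 0.35, -0.05 ± 0.26 and -0.05 ± 0.30. Of 30 receptor signalling genes 28 were tested, with 18 higher, 10 lower and a median of 0.13. Rac2, the GTPase of leukocyte migration, stood at 2.02 and 1.94 against 4.30 and 2.93 CPM (0.87 ± 0.35). Was, an actin regulator of blood cells, differed by 0.97 ± 0.54, and the G protein subunit genes Gnb2 and Gng2 by -0.41 ± 0.23 and -0.42 ± 0.32.

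Cytokines and transcription factors that induce chemokines gave 2 higher and 10 lower of 12 tested, with a median of -0.16. The NF-kB subunit gene Relb stood at 8.31 and 9.70 CPM with saline and 6.45 and 4.44 CPM after immune complexes (-0.72 ± 0.28), and the alarmin gene Il33 at 3.20 and 4.82 against 7.08 and 6.33 CPM (0.74 ± 0.30). Rela and Nfkb1 each differed by -0.20 (± 0.17), and Il1b by -0.18 ± 0.45. Tnf stood at 0.0492, 0.0946, 0.224 and 0.142 CPM. Adhesion molecules that act with chemokines at the vessel wall were higher for 2 and lower for 6 of 8 tested (median -0.19). Among them the sialomucin gene Cd34 differed by -0.47 ± 0.28 and the selectin ligand gene Selplg by 0.53 ± 0.38. The junction gene Jam2 differed by -0.39 ± 0.30 and the integrin ligand gene Icam2 by -0.31 ± 0.25. With 1 library left out the sign turned for Jam2 (0.04 without saline 1), Pf4 (0.28 without saline 2), Cklf (0.02 without saline 2), Cmtm6 (0.27 without immune complex 1), Cmtm3 (0.23 without immune complex 2 and 0.05 without saline 1) and Il1b (0.19 without immune complex 2). None of the other pathway genes given here with a fold change changed sign.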

How the data were processed

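RNA from part of a kidney in each of 4 samples, 2 saline and 2 immune complex, was sequenced on Illumina libraries, per the labels' protocols. Alignment software STAR (2.5.2b), DESeq2 and the build GRCm38 appear in the processing notes of the submitters, without roles. RNA selection, counter, annotation and strand setting were not given in the sources used here. The deposited count tables hold total, unique, exon and intron reads per gene, with gene and exon lengths, per the file headers. RPKM values were computed by the authors, and for 100% of the members they equalled exon reads per kilobase of exon scaled to total gene reads within a relative difference of 0.0001. A further deposited table gives the authors' log2 fold change, its standard error, p-value, adjusted p-value, test statistic (a score) and mean normalized signal for 16128 genes, coded saline over immune complex, since its sign opposed the read ratio for all 80 genes under an adjusted p of 0.05.

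The main test on total gene reads used edgeR 4.0.16 under R 4.3.3 (TMM scaling, filterByExpr, glmQLFit, glmQLFTest; 16334 genes; Benjamini-Hochberg at 0.05), without a block. The common biological coefficient of variation was 0.212, with 2 residual degrees of freedom. The SE is the log2 fold change over the square root of F. CPM used TMM-scaled library sizes. Depth was 19675879 to 22791960 reads. Replicates were not copies, with a chi-square per degree of freedom of 18.2 between saline and 61.2 between immune complex libraries. DESeq2 1.42.0, limma 3.58.1 voom, other scaling, filters and read classes, blocks and leaving out each library were tried. The fit was also run on simulated data in which no gene of low level was changed, so that run does not bear on members of low level. Lists held 24 groups of genes with all 218 entries found. Some items, 1 tested member among them, are not reported here. The text describes each other tested member by its value in every library and accounts for the others by their reads. It names up to 4 genes of lowest unadjusted p from each pathway list plus Ackr1 to Ackr4, Pf4, Tnf and Il1b, and leading genes of cell lists. Fn1, Mpo, Siglech, Batf3 and Mmrn1 were named after their values were seen. Members and lists were chosen with earlier results of these data known. Protein sequences were not used here, and promoters came from RefSeq (GRCm38.p6).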

Additional observations from a re-analysis of the deposited data

How the results depend on the processing

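Over all genes the count of calls was 0 in the reported fit and with RLE scaling, exon reads or limma-voom. It was 2 without a filter on low counts, 1 on reads at 1 location, 1 on exon reads at 1 location (added after seeing the data), 100 with DESeq2, and and with single libraries left out 47 (without saline 1), 279 (without saline 2) or 0 (without either immune complex library), a range of 0 to 279, where the lone sample of a group is assumed to vary like the other group. Among the chemokine and receptor genes 0 were called in all of these except without saline replicate 2, where Cxcl10 and Ccl28 made 2 (range over libraries left out, 0 to 2). With the replicate number of the labels as a block, 55 genes and 0 members were called. The numbers are not said to pair samples, and deviations of libraries with the same number correlated at -0.135, so a crossed pairing was added after seeing the data, with 160 genes and 0 members called. The median log2 fold change of the tested members was 0.37, and ran from -0.026 to 0.39 with single libraries left out, with -0.026 without immune complex replicate 1. Of 290 values of single members under alternatives, 281 kept direction and side of the threshold, and 8 reversed, all with a library left out. The DESeq2 values of Cxcl1, Cxcr5, Xcr1 and Ccl11 had no adjusted p and were taken as not called. The ranges were -0.19 to 0.76 for Ccl27a, -2.35 to 0.89 for Ccl21a, -0.28 to 2.99 for Cxcr5, -0.10 to 1.15 for Ccr1, -0.30 to 0.84 for Ccl1 and -1.96 to 2.73 for Ccl28. The cause was not tested. With exon reads 4 members (Cxcr5, Ccr9, Ccl1 and Ccr6) had too few reads to be tested. Most inflammatory ligands had under 10 reads per library, which limits any statement on them to counting error.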
